A study of Homo sapiens with 23 samples.

Results

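MM1S is a multiple myeloma cell line, a malignant plasma cell line that carries a translocation placing the oncogene MAF under immunoglobulin heavy chain control. The comparison described here set MM1S cells with a guide RNA against IRF4 (3 libraries, replicates 1, 2 and 3) against MM1S cells with the EV control (2 libraries, replicates 2 and 3), chosen by the cell line and guide given in the library titles. These were 5 of the 23 RNA-seq libraries of the study, which paired the same guide with EV in H929, OPM2 and RPMI-8226 as well (6 libraries each). All lines, controls included, received doxycycline for 48 hours to switch on the guide. The labels name 1 IRF4 guide and 1 time point. Whether each replicate was its own culture is not stated there, and the p-values below therefore cover only library to library spread, which may be technical.

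IRF4 is a transcription factor of the interferon regulatory factor family that plasma cells need, and myeloma cells are known to depend on it whatever their initiating lesion. It binds composite sites with ETS or AP-1 partners and sites of the interferon response type, and it can activate or repress. The BCL2 family decides whether mitochondria release cytochrome c: BH3-only proteins such as BMF and BIM (gene BCL2L11) neutralise survival proteins such as BCL2, BCL-XL (gene BCL2L1) and MCL1, which frees the pore formers BAX and BAK. The title of the study names BMF and BIM as genes that IRF4 represses.

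The promoter of BMF is shown first because BMF is the gene the study is named for, and those of DDX60 and POLA2 because each carries a word that was searched for in the promoters of the interferon and replication genes described below. Each is the run of 250 bases before the start of the RefSeq gene (GRCh38.p14), 5′ to 3′ on the strand of the gene, with the words in capitals.
BMF, chr15:40108880-40109129, minus strand: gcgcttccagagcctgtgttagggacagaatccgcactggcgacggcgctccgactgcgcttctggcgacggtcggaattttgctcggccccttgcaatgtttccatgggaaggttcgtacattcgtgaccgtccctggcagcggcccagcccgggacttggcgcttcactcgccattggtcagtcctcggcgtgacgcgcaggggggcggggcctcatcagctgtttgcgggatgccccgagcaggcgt
DDX60, chr4:168318753-168319002, minus strand: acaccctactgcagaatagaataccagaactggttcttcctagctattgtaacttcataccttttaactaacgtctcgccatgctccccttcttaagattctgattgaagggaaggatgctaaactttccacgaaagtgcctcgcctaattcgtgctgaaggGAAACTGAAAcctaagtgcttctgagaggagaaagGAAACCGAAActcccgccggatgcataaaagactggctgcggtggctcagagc
POLA2, chr11:65261712-65261961, plus strand: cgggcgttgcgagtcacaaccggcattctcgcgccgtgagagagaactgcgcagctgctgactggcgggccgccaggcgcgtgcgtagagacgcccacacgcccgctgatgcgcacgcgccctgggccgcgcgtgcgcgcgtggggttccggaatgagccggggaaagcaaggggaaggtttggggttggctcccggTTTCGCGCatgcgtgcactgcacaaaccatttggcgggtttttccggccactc
The DDX60 promoter holds the interferon response word (GAAA, any 2 bases, GAAA) at 2 places, which begin 88 and 53 bases before the start. The POLA2 promoter holds the E2F word TTTCGCGC once, beginning 53 bases before the start. The BMF window holds neither the interferon response word nor the ETS and IRF composite word (GGAA, any 2 bases, GAAA) on either strand. That says only that these letters are not in this window.

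The IRF4 transcript itself (chr6:391752-411443) was at 724 and 641 normalised CPM (counts scaled to the size of each library) in the EV libraries and at 279, 287 and 228 CPM with the guide. All 3 guide libraries lay below both EV libraries, and the fitted log2 fold change was -1.37 (SE 0.20, edgeR adjusted p = 3.96e-05). A guide cuts DNA, so the transcript level measures neither the edit nor the IRF4 protein. Of 16468 genes tested, 5693 (34.6%) passed an adjusted p of 0.05 and are called changed below: 3193 (19.4%) were higher and 2500 (15.2%) lower with the guide. All counts of list members called higher or lower below are to be read beside these shares. A change of at least 2-fold was called in 980 genes upward (5.95%) and 465 downward (2.82%), and the median log2 fold change over all tested genes was 0.07. Without EV replicate 2 the genes called higher numbered 2011, and 3810 genes were called in all. The groups of libraries did not overlap for 55.4% of the tested genes and for 99.1% of the called ones.

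The libraries held between 6907390 and 28486960 counts assigned to genes, the deepest being IRF4 guide replicate 1 and the other 4 holding at most 9653222. Pearson correlations of log2 CPM over tested genes were 0.9882 to 0.9929 within the groups and 0.9731 to 0.9812 between them. Plasma cell markers were present, with JCHAIN at 4738 to 5620 CPM and SDC1 at 496 to 553 CPM, and MAF stood at 559 CPM or more in every library. The B cell antigen MS4A1 and the T cell gene CD3D had no count in any MM1S library, and CD14 was at most at 0.204 CPM. Other members of the marker lists were expressed, among them the T cell gene CD3E, whose values are given below. ITGAM, on the myeloid list, was at 1.02 and 2.01 CPM with EV and at 7.87, 8.19 and 12.9 CPM with the guide. Both CD3E and ITGAM were called higher. The other cell type marker lists summed to at most 15.8 CPM for T and NK cells, 39.5 CPM for myeloid cells and 8.93 CPM for stromal and epithelial cells, while the erythroid list, at 198 to 545 CPM, was mostly TFRC, the transferrin receptor that dividing cells use.

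Among the BH3-only genes, 4 of 8 (50%) rose and 1 (12.5%) fell, against 19.4% and 15.2% of all tested genes. BMF was at 245 and 227 CPM with EV and at 806, 805 and 853 CPM with the IRF4 guide. The groups were far apart, with a log2 fold change of 1.80 (SE 0.15, adjusted p = 2.28e-09). BCL2L11 (chr2:111120914-111168445), which encodes BIM, went from 236 and 213 CPM to 385, 393 and 367 CPM. Its log2 fold change of 0.77 (SE 0.09, adjusted p = 8.21e-08) was smaller than that of BMF, and the libraries of the groups again did not overlap. BBC3 (chr19:47220824-47232860), which encodes the p53-responsive protein PUMA, went from 14.2 and 15.1 CPM to 70.6, 70.5 and 68.9 CPM. That was a log2 fold change of 2.26 (SE 0.22, adjusted p = 1.52e-08), and the 3 guide libraries lay within 2 CPM of each other. HRK, a BH3-only gene best known from neurons, had 0 counts in both EV libraries and 32 counts over the 3 guide libraries, which is at least 4.39-fold higher when the EV group is set to a floor of 3 counts over the group.

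PMAIP1, which encodes NOXA, the BH3-only partner of MCL1, moved the other way. It was at 26.2 and 28.8 CPM with EV and at 16.3, 14.6 and 12.2 CPM with the guide (log2 fold change -0.90, SE 0.16, adjusted p = 3.01e-05). BID, BAD and BIK were not called, with log2 fold changes of -0.03, 0.22 and 0.24. Of the pore formers, BAX (chr19:48954875-48961798) rose from 38.6 and 38.7 CPM to 85.4, 82.1 and 71.1 CPM, a log2 fold change of 1.05 (SE 0.11, adjusted p = 2.81e-08). BAK1 was at 46.0 and 51.8 CPM against 48.1, 51.1 and 46.1 CPM, so its groups overlapped (adjusted p = 0.996).

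Of the pro-survival genes, 2 of 5 (40%) were called, both upward, against 19.4% of all tested genes called higher. BCL2L1 (chr20:31664452-31723963) was at 275 and 274 CPM with EV and at 437, 463 and 434 CPM with the guide (log2 fold change 0.70, SE 0.09, adjusted p = 2.29e-07). MCL1, the survival protein on which plasma cells lean most, went from 569 and 585 CPM to 775, 771 and 930 CPM (0.51, SE 0.12, adjusted p = 0.00197). BCL2 stood at 131 and 126 CPM against 151, 139 and 145 CPM and was not called (adjusted p = 0.248). So in MM1S BMF, BCL2L11, BBC3 and BAX on the death side and BCL2L1 and MCL1 on the survival side were all called higher.

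**Figure D1:**
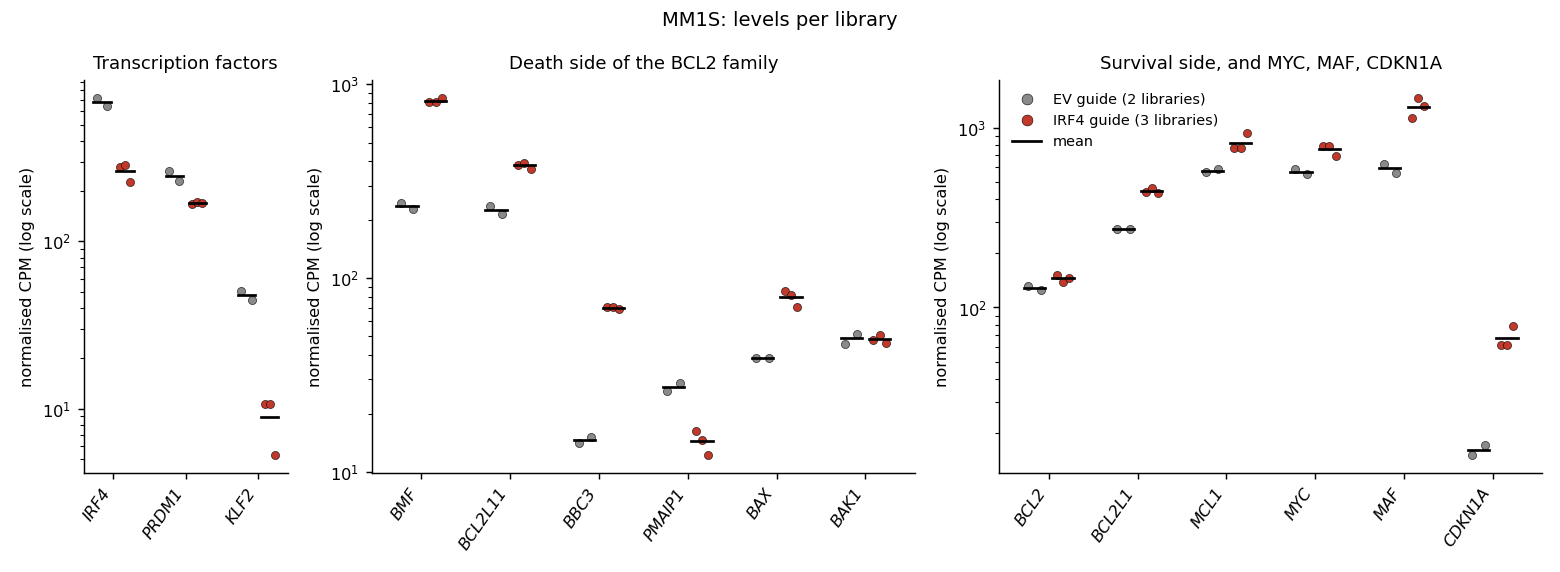
Normalised CPM (log axis) of transcription factors, BCL2 family genes and 3 further genes in each MM1S library; grey points are the 2 EV libraries, red points the 3 IRF4 guide libraries, and black lines the group means. BMF sits at 227 to 245 CPM with EV and 805 to 853 CPM with the guide, while the points of BAK1 overlap and PMAIP1 is lower with the guide.

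Further along the death pathway the pattern was mixed. The list of caspases and apoptosome genes had 1 member called higher and 5 lower of 15 (median log2 fold change -0.24). These were 6.67% and 33.3%, against 19.4% and 15.2% of all tested genes. CYCS, the cytochrome c that BAX and BAK release, fell from 332 and 315 CPM to 205, 174 and 165 CPM. CASP8, the initiator at death receptors, was called higher by 0.33 on the log2 scale, a call lost without EV replicate 3. Of the 10 death receptor genes 6 (60%) rose and none fell (median 0.61). TNFRSF10B, which encodes the TRAIL receptor DR5, went from 29.8 and 32.1 CPM to 77.2, 70.8 and 85.6 CPM (log2 fold change 1.33, SE 0.16, adjusted p = 3.07e-07). FAS rose by 0.82 on the log2 scale, and CFLAR, the receptor-level inhibitor of CASP8, rose by 0.54.

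Several of these genes are known p53 targets, and a list of p53 targets had 21 of 29 tested members called higher and none lower, against 19.4% of all genes called higher. The median log2 fold change of the list was 0.93. CDKN1A (chr6:36676463-36687332), which encodes the CDK inhibitor p21, went from 15.1 and 17.3 CPM to 61.9, 61.8 and 79.3 CPM (log2 fold change 2.05, SE 0.31, adjusted p = 5.43e-05). FDXR, the mitochondrial ferredoxin reductase, went from 10.1 and 9.60 CPM to 32.3, 36.7 and 29.4 CPM (1.74, SE 0.17). PHLDA3, an inhibitor of AKT, went from 2.04 and 1.12 CPM to 10.04, 13.7 and 11.6 CPM (2.86, SE 0.55).

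Not every p53 target moved. MDM2, the ubiquitin ligase of p53 and a classical target, stood at 345 and 358 CPM against 369, 365 and 358 CPM (log2 fold change 0.05, adjusted p = 0.83). PPM1D, GADD45A and PLK3 were not called either, with log2 fold changes of 0.13, 0.06 and -0.52. TP73, a member of the p53 family that was among the largest falls, went from 31.0 and 26.8 CPM to 9.90, 6.27 and 6.65 CPM.

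The largest rises among genes of at least 5 CPM were led by KRT15, a keratin, with a log2 fold change of 4.94 (SE 0.45). KRT15 was at 0.102 and 0.446 CPM with EV, only 1 and 4 counts, and at 7.13, 9.61 and 9.14 CPM with the guide. MMP9, a secreted gelatinase, was at 2.04 and 1.34 CPM with EV and at 27.6, 31.3 and 35.1 CPM with the guide (4.19, SE 0.36, adjusted p = 6.77e-10). PCDH1 (chr5:141853090-141878410), a protocadherin, went from 23.04 and 21.6 CPM to 171, 206 and 199 CPM (3.10, SE 0.15), which had the smallest standard error of the large rises. BCL6, the repressor of the germinal centre programme, went from 1.83 and 2.68 CPM to 16.01, 17.3 and 19.8 CPM (2.97, SE 0.25). C3AR1 (the complement C3a receptor), MERTK (a receptor of apoptotic cell uptake), ITGAM (an integrin of myeloid cells) and FBXO32 (a ubiquitin ligase) rose by 3.27, 2.83, 2.64 and 2.72.

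GDPD5 and ZEB2 were called with 0 counts in both EV libraries, and were at least 14.8-fold and at least 8.65-fold higher with the guide. IL7R, the interleukin 7 receptor chain of lymphoid progenitors, was at least 5.22-fold higher by the same floor. In the other direction ANXA3 had 10 counts over the EV libraries and 0 over the guide libraries, at least 8.09-fold lower. The further genes with no guide count, MAP7D2, GABRA3, SMIM3, COLEC12 and RASEF, rested on 4 to 6 counts and lost their call without EV replicate 3.

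GPRC5D (chr12:12940575-12952170), a plasma cell receptor targeted by bispecific antibodies and CAR T cells, had the largest fall among genes of at least 5 CPM. It was at 54.5 and 52.8 CPM with EV and at 6.22, 5.26 and 4.30 CPM with the guide, a log2 fold change of -3.27 (SE 0.23, adjusted p = 6.65e-10). Next was CAV2, a caveolin of membrane pits, from 73.1 and 70.4 CPM to 10.8, 10.5 and 6.93 CPM (-2.89, SE 0.19). The chemokine CCL3, by which myeloma cells are known to drive osteoclasts and which has near-identical copies that could share its reads, fell from 169 and 139 CPM to 34.5, 24.8 and 31.3 CPM (-2.34, SE 0.16). KLF2, a Kruppel-like transcription factor of quiescence and homing, fell from 50.2 and 44.9 CPM to 10.6, 10.7 and 5.27 CPM (-2.34, SE 0.35). MYB, a proto-oncogene of haematopoietic progenitors, fell from 94.5 and 97.2 CPM to 25.7, 21.6 and 14.1 CPM (-2.17, SE 0.23). VIM, the intermediate filament vimentin, fell from 269 and 286 CPM to 81.5, 73.8 and 83.4 CPM (-1.80, SE 0.10).

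**Figure D2:**
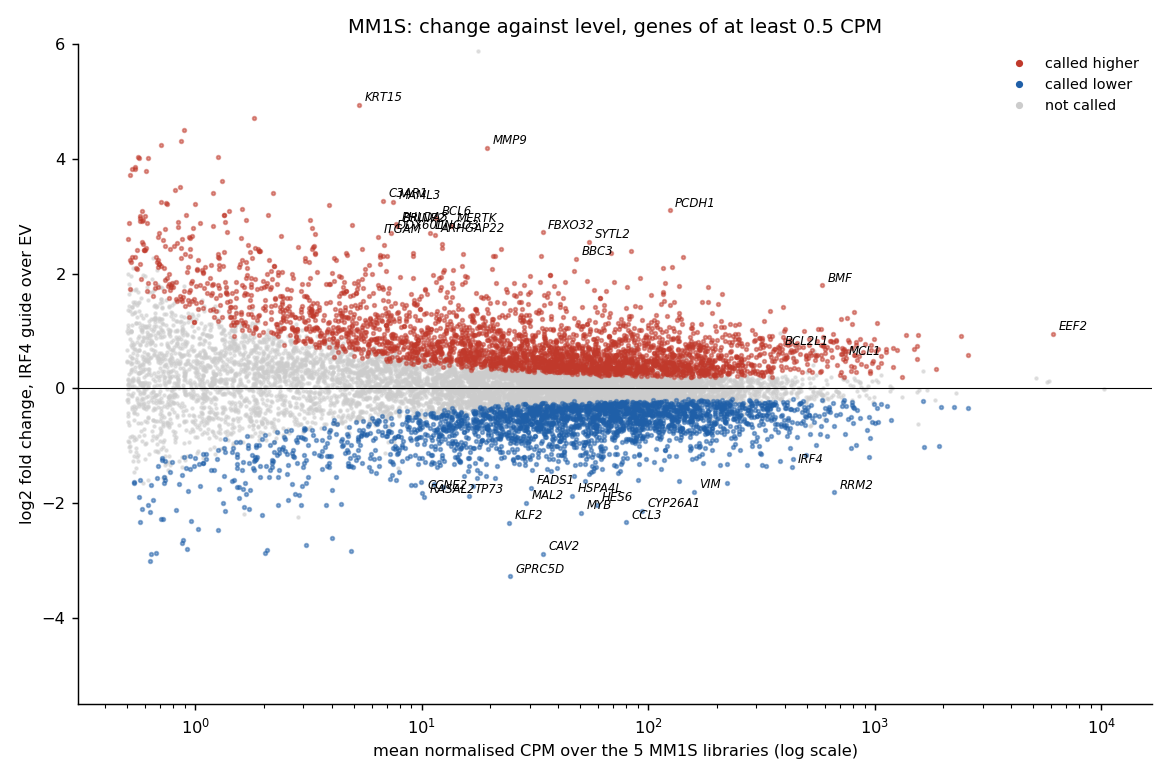
Log2 fold change of the IRF4 guide over EV in MM1S against the mean normalised CPM of the 5 libraries (log axis), for genes of at least 0.5 CPM; red points are called higher, blue points called lower and grey points not called. The 15 largest rises and falls among genes of at least 5 CPM are named. Of these, KRT15 (4.94) and MMP9 (4.19) lie at the top and GPRC5D (-3.27) and CAV2 (-2.89) at the bottom. EEF2 (0.95) is the most abundant called gene. Genes beyond the vertical range, such as GDPD5 and ZEB2, are not drawn.

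The plasma cell programme changed in parts. Of 20 tested members 3 (15%) were called higher and 6 (30%) lower (median log2 fold change -0.12). Over all tested genes the shares were 19.4% and 15.2%. Besides GPRC5D, the fallers included TNFRSF17 (chr16:11965210-11968068), which encodes the immunotherapy target BCMA, from 186 and 187 CPM to 98.7, 75.3 and 71.1 CPM (-1.17, SE 0.15, adjusted p = 2.03e-06). SLAMF7, the target of elotuzumab, went from 269 and 272 CPM to 106, 107 and 119 CPM (-1.30, SE 0.14, adjusted p = 9.04e-08). PRDM1, which encodes the plasma cell master regulator BLIMP1, went from 262 and 229 CPM to 167, 173 and 169 CPM (-0.53, SE 0.09). ELL2, an elongation factor for immunoglobulin mRNA processing, fell by 0.72 on the log2 scale.

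Other plasma cell genes did not follow. FCRL5, another immunotherapy target, rose from 0.306 and 0.223 CPM to 2.11, 1.21 and 2.91 CPM (log2 fold change 2.90, SE 0.71). SDC1 (syndecan 1, CD138), XBP1 (the unfolded protein response factor of secretory cells), JCHAIN and MZB1 were not called, with log2 fold changes of 0.09, 0.15, 0.18 and 0.09. CD38, the target of daratumumab, was at 12.3 and 13.3 CPM against 9.41, 7.69 and 6.51 CPM, and although the groups did not overlap it was not called (adjusted p = 0.186). A B cell programme list had 8 of 21 members called higher and 1 lower, with 5 higher without EV replicate 2. Its risers included BCL6, SPI1 (the factor PU.1, an ETS partner of IRF4; 9.89 and 12.7 CPM to 35.6, 38.4 and 44.2 CPM) and ID3 (an inhibitor of E proteins, 1.15). PAX5 and MS4A1, which define B cells, stayed at or next to 0.

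**Figure D3:**
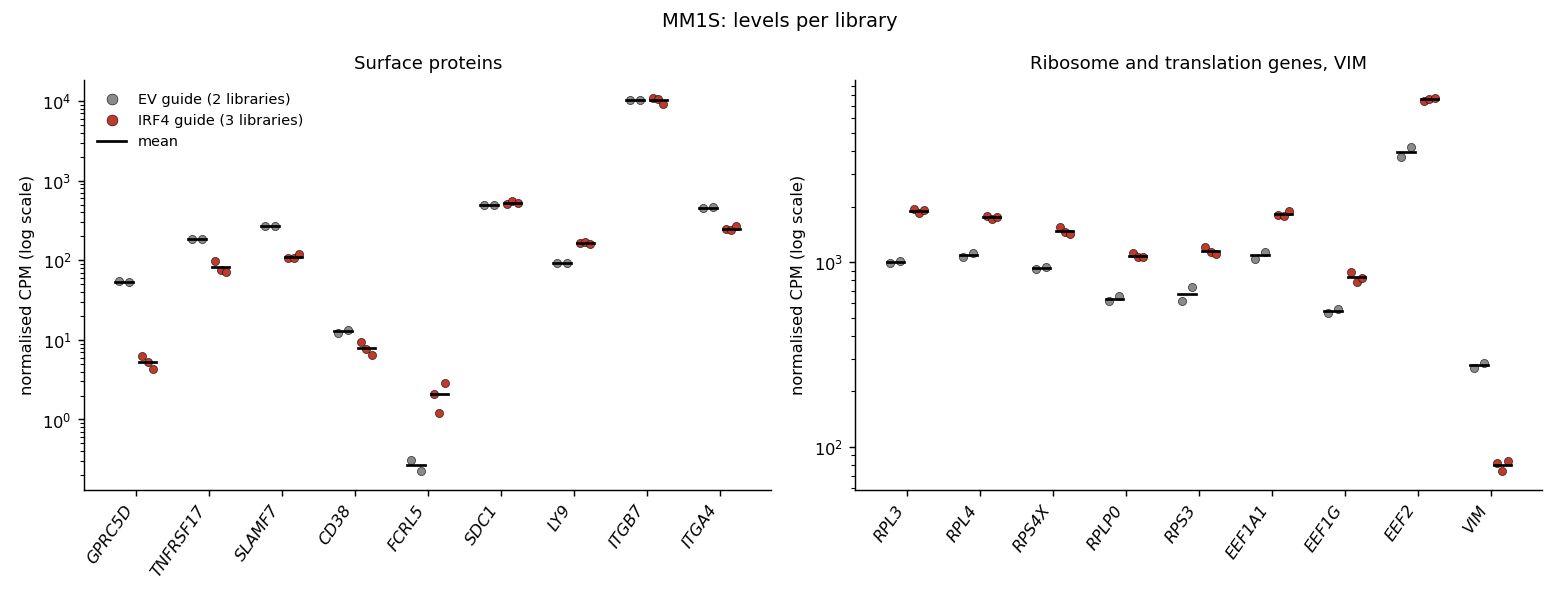
Normalised CPM (log axis) per MM1S library of surface proteins (left) and of ribosome and translation genes and VIM (right); grey points are EV, red points the IRF4 guide, black lines the group means. GPRC5D, TNFRSF17 and SLAMF7 lie lower with the guide, SDC1 and ITGB7 level, and EEF2, at 3700 and 4184 CPM with EV, lies at 7471 to 7707 CPM with the guide.

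MAF (chr16:79202622-79600737), the translocated oncogene of this line, rose from 631 and 559 CPM to 1136, 1467 and 1311 CPM (log2 fold change 1.13, SE 0.12, adjusted p = 1.66e-08). Its known targets went different ways. CCND2, the D cyclin of MAF myelomas, fell from 607 and 558 CPM to 241, 244 and 248 CPM (-1.26, SE 0.10, adjusted p = 5.78e-11). ITGB7, the integrin chain that anchors MAF myelomas to stroma, was at 10175 and 10414 CPM with EV and at 10814, 10575 and 9178 CPM with the guide, so its groups overlapped (-0.01).

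NUAK1, a kinase known as a MAF target in myeloma cells, rose by 1.02, and DEPTOR, the mTOR inhibitor overexpressed in MAF myelomas, rose by 0.82. Of 8 myeloma translocation oncogenes, 2 (25%), MAF among them, were called higher and 4 (50%) lower, against 19.4% and 15.2% of all tested genes. Without IRF4 guide replicate 2, 3 were higher and 3 lower. CCND3 fell by 0.83, NSD2 by 0.75 and CCND1 by 1.22. MYC was at 586 and 551 CPM with EV and at 790, 788 and 698 CPM with the guide (0.42, SE 0.11, adjusted p = 0.00418). The call on MYC was lost without EV replicate 3 (adjusted p = 0.0621). Among the partners and antagonists of MYC, 6 of 12 genes including MYC (50%) were called, all higher, against 19.4% of all tested genes. Without IRF4 guide replicate 1, 5 of them were called higher. MXD4, an antagonist that competes for MAX, went from 72.2 and 78.1 CPM to 245, 266 and 260 CPM (1.77, SE 0.12, adjusted p = 8.74e-12).

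All 36 genes of DNA replication and the G1/S transition were called lower, against 15.2% of all tested genes (median log2 fold change -0.98). RRM2 (chr2:10122568-10211010), a subunit of ribonucleotide reductase, went from 1165 and 1152 CPM to 380, 342 and 268 CPM (-1.81, SE 0.17, adjusted p = 7.33e-08). CLSPN, a checkpoint adaptor at replication forks, went from 91.2 and 86.6 CPM to 30.8, 30.2 and 25.1 CPM (-1.62, SE 0.12). POLA2, the DNA polymerase alpha subunit whose promoter is printed above, went from 80.7 and 78.7 CPM to 42.0, 42.3 and 33.7 CPM (-1.01). POLD1, with the smallest fall, was still called at -0.48. The 22 genes of homologous recombination and the Fanconi pathway were all called lower too, from BRIP1 at -1.34 to FANCA at -0.32 (median -0.90). With any 1 MM1S library left out, at least 35 members of the first list and 19 of the second were called lower.

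Genes of mitosis fell less far: 22 of 30 were called lower and none higher (median -0.49). MKI67, the proliferation antigen Ki-67, went from 1223 and 1130 CPM to 612, 571 and 601 CPM (-0.98). CDK1, the mitotic kinase, fell from 242 and 273 CPM to 153, 147 and 138 CPM. PLK1, CDC20 and CCNB2 had log2 fold changes of -0.12, -0.15 and 0.04 and were not called. In the list of D cyclins, CDKs, E2F factors and CDK inhibitors, 15 of 24 fell, and CDKN1A was the member that rose. CDK6, the kinase partner of D cyclins, went from 465 and 458 CPM to 215, 209 and 210 CPM (-1.13, SE 0.08). RB1 fell by 0.82 and CDKN1B, which encodes p27, was not called (0.20).

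The E2F words TTTGGCGC and TTTCGCGC, read on both strands of the 300 bases around each RefSeq start, were found in 31.2% of the 32 replication genes with a promoter in the table. They were found in 1.18% of all 27305 promoters of that length and in 1.98% of those of tested genes. Among genes with a promoter, they were in 4.19% of the 2051 called lower and 0.987% of the 2532 called higher. The share was 1.73% among genes not called. The E-box CACGTG was in 7.43% of all promoters, in 9.68% of those of tested genes and in 30.8% of 26 promoters of the MYC target list. Promoters were matched for 12560 of the tested genes. A match is a stretch of letters and shows no binding.

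Genes of protein turnover and lipid synthesis also fell as groups. Of 32 proteasome genes 20 were called lower and none higher (median -0.38), led by the lid subunit PSMD12, from 97.5 and 94.1 CPM to 60.8, 54.0 and 53.8 CPM (-0.76, SE 0.09). Of 20 chaperones 13 were lower and 1 higher. HSP90AA1, the stress-inducible HSP90, went from 735 and 830 CPM to 378, 365 and 441 CPM (-0.99, SE 0.11), while HSF1, the heat shock factor itself, rose by 0.57.

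Of 30 genes of sterol and fatty acid synthesis, 20 were lower and none higher (median -0.62). FADS1, a fatty acid desaturase, went from 50.6 and 54.8 CPM to 18.3, 13.7 and 14.3 CPM (-1.73, SE 0.13). SREBF1, a transcription factor of lipid synthesis, fell by 1.14 on the log2 scale. TFRC, the iron importer, went from 539 and 503 CPM to 218, 192 and 200 CPM (-1.35, SE 0.18). Of 23 genes of glycolysis and hypoxia, 10 were lower and 3 higher. Without EV replicate 3, 6 were lower, and without EV replicate 2, 1 was higher. LDHA, the lactate-forming enzyme, fell from 1283 and 1553 CPM to 698, 612 and 554 CPM (-1.19, SE 0.14).

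Lysosome and autophagy genes moved upward: 21 of 29 rose and 1 fell (median 0.41). ULK1, the kinase that starts autophagy, went from 15.7 and 14.8 CPM to 44.1, 50.8 and 47.5 CPM (1.63, SE 0.15, adjusted p = 2.22e-09). PSAP, the precursor of lysosomal saposins, went from 733 and 775 CPM to 1195, 1230 and 1211 CPM (0.68, SE 0.09). Of 25 genes of the unfolded protein response 6 were higher and 4 lower (24% and 16%, median -0.05), shares near the 19.4% and 15.2% of all tested genes. Its stress sensor ERN1 rose from 95.3 and 103 CPM to 223, 214 and 215 CPM (1.13, SE 0.16). SEL1L, a scaffold protein of ER-associated degradation, fell from 515 and 482 CPM to 218, 193 and 178 CPM (-1.34, SE 0.09), and the chaperone HSPA5 was not called (-0.02).

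**Figure D4:**
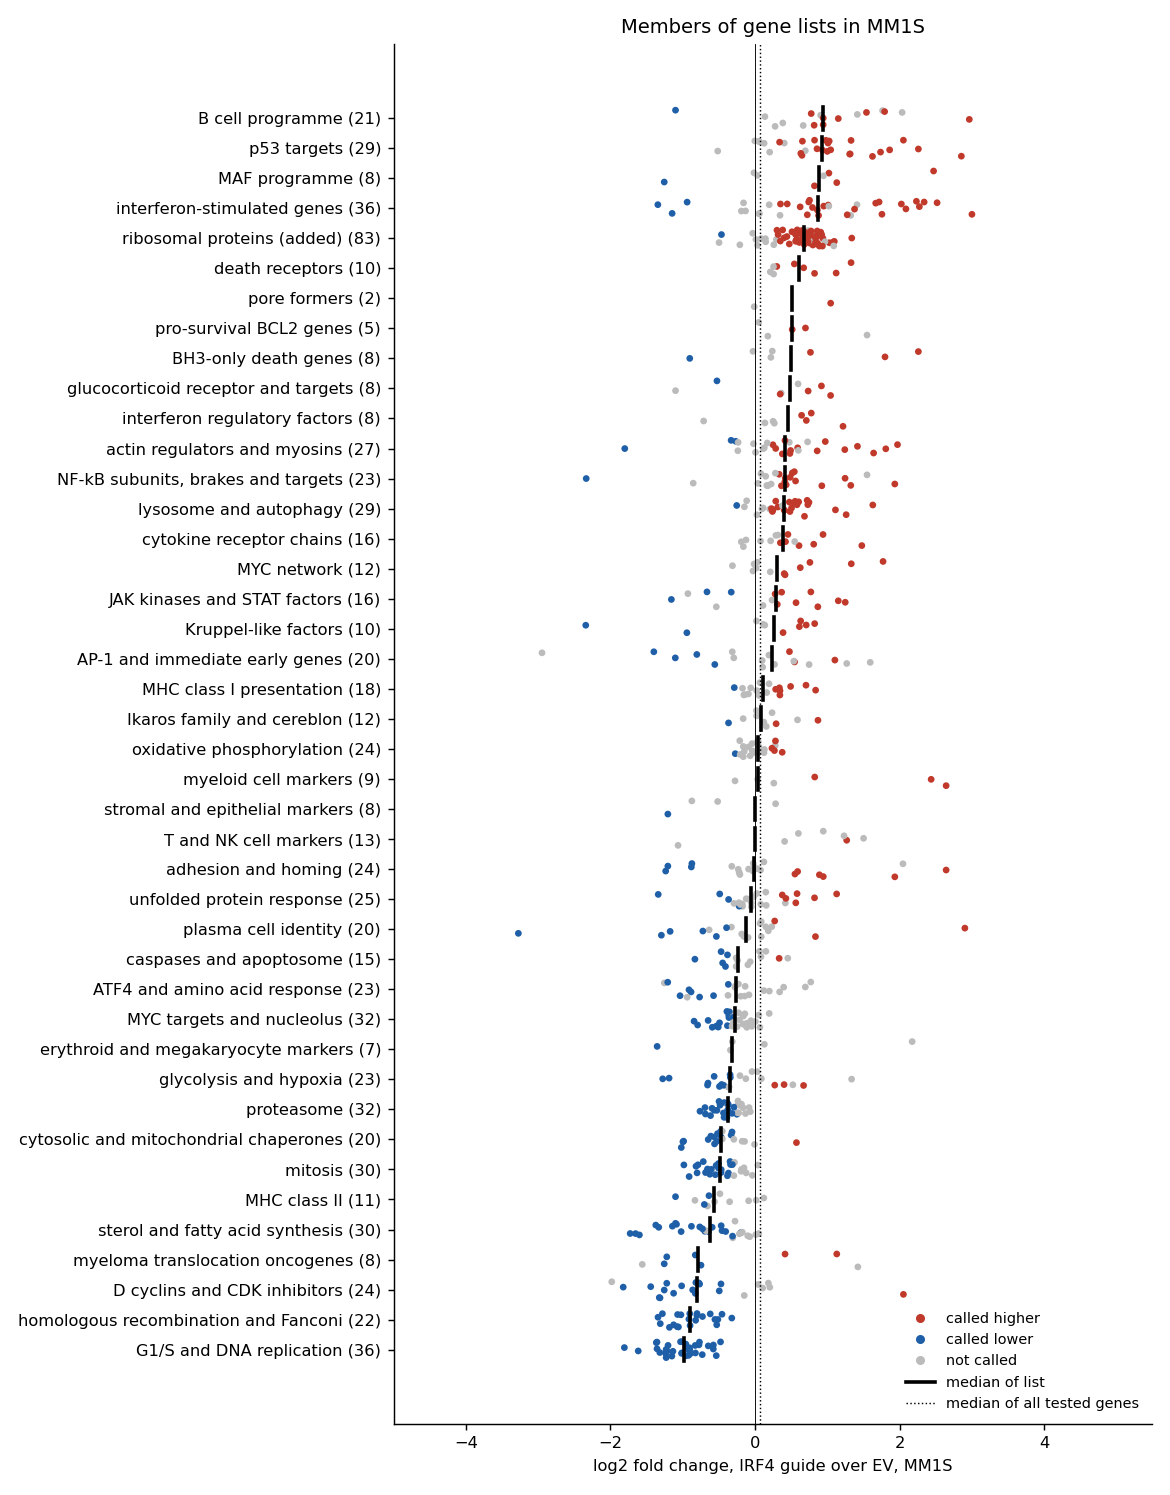
Log2 fold change in MM1S of each tested member of the gene lists (list size in brackets), coloured by call, with the list median as a black bar and the median of all tested genes as a dotted line; members with 0 counts in a group are not drawn, though the medians include them. The replication list has all 36 points on the negative side (median -0.98), and the p53 target list has a median of 0.93.

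Interferon-stimulated genes were mostly higher, at 23 of 36 called higher and 3 lower (median 0.87), and 15 higher without EV replicate 2. DDX60, an RNA helicase of antiviral sensing, went from 4.38 and 4.35 CPM to 19.03, 23.8 and 24.4 CPM (2.34, SE 0.28, adjusted p = 1.23e-07). DHX58, another RNA sensor, went from 1.73 and 2.01 CPM to 6.81, 8.19 and 9.42 CPM (2.09, SE 0.31). The levels of many of these genes were low: IFIT2, RSAD2 and IFI44L reached at most 2.23 CPM in any MM1S library. USP18, the brake on interferon signalling, fell by 1.34 (1.33 and 1.90 CPM to 0.773, 0.506 and 0.416 CPM).

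The interferon response word, read on both strands of the same windows, was present in 19 of the 29 promoters of interferon-stimulated genes in the table (65.5%), against 3.65% of all promoters. Among genes called higher, 3.71% of 2532 promoters held it, and among genes called lower 2.29% of 2051. For changes of at least 2-fold the shares were 4.90% of 735 upward and 2.26% of 354 downward. Among genes not called the share was 3.00%, and among tested genes 3.03%. The composite word was in 2.80% of promoters of genes called higher, 2.34% of those called lower, 2.60% of tested genes and 2.84% of all promoters. The words differ in 1 letter, so they cannot match at the same place on the same strand.

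Of the interferon regulatory factors tested other than IRF4, 4 of 8 (50%) rose, against 19.4% of all tested genes called higher. IRF1 went from 98.5 and 105 CPM to 161, 183 and 180 CPM (0.78, SE 0.09), and IRF9, the DNA-binding part of the type I interferon complex, from 6.32 and 6.58 CPM to 15.7, 14.1 and 14.96 CPM (1.22, SE 0.24). In the list of JAK kinases and STAT factors 8 of 16 rose and 3 fell, with 5 rising without EV replicate 2. STAT6, the factor of interleukin 4 signalling, rose from 93.6 and 77.5 CPM to 167, 153 and 149 CPM (0.87, SE 0.10). JAK2 fell by 0.66. IL6R, the receptor of the main myeloma growth factor, went from 696 and 751 CPM to 953, 939 and 1015 CPM (0.42, SE 0.10).

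Among antigen presentation genes of class I, 7 of 18 list members were higher and 1 lower, with 3 higher without EV replicate 2. Of class II, 3 of 11 members were lower and none higher (median -0.56), with 1 lower, CIITA, on the deposited log2 RPKM values and 5 with the MM1S libraries alone. The shares were 38.9% higher and 5.56% lower for class I and 27.3% lower for class II. Over all tested genes they were 19.4% higher and 15.2% lower. HLA-DRB1 and HLA-DPA1 lost their calls on the log2 RPKM values with limma (adjusted p = 0.405 and 0.633). CIITA, the master regulator of class II, went from 42.4 and 33.2 CPM to 19.4, 17.5 and 15.5 CPM (-1.10, SE 0.17, adjusted p = 5.93e-06). HLA-DRA, at 649 and 683 CPM against 512, 395 and 358 CPM, was not called (adjusted p = 0.0815). HLA genes are near-identical to one another and the counting of shared reads could split them, so their single values are uncertain.

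Of 23 NF-kB subunits, brakes and targets, 13 rose and 1, CCL3, fell, with 8 rising without EV replicate 2. ICAM1, an adhesion molecule and target, went from 2.65 and 3.24 CPM to 10.6, 11.03 and 12.7 CPM (1.93, SE 0.33). Of 24 adhesion genes 6 were higher and 4 lower (25% and 16.7%), shares near the 19.4% and 15.2% of all tested genes. ITGA4, the partner of ITGB1 and ITGB7, went from 454 and 463 CPM to 244, 239 and 268 CPM (-0.87, SE 0.11, adjusted p = 3.95e-07). ICAM3 rose from 140 and 171 CPM to 297, 294 and 307 CPM. Among actin regulators and myosins 14 of 27 rose and 3 fell (1 fell without EV replicate 2), with MYO7A, an unconventional myosin, at 12.7 and 13.8 CPM against 47.1, 53.4 and 56.5 CPM (1.97, SE 0.18).

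Genes that bear on myeloma drugs were fixed as lists too. IKZF3, which encodes Aiolos, a target of lenalidomide, went from 217 and 208 CPM to 348, 383 and 436 CPM (0.87, SE 0.09, adjusted p = 2.05e-08). IKZF1, which encodes Ikaros, was not called (0.02). NR3C1, the glucocorticoid receptor through which dexamethasone kills this line, was at 153 and 165 CPM against 195, 206 and 207 CPM (0.35, SE 0.09, adjusted p = 0.00186), a call lost without EV replicate 2. Its target TSC22D3, also known as GILZ, rose by 0.92, and FKBP5, another target, fell by 0.53.

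The change in MM1S was next set against the mean change in H929, OPM2 and RPMI-8226, which share no library with it. There, 58.9%, 43.5% and 33.9% of the tested genes were called in H929, OPM2 and RPMI-8226, and 58.6% in their mean. The difference was called for 3316 genes (20.1%), more positive in MM1S for 1698 (10.3%), and for 1906 genes without MM1S EV replicate 2 or 2050 without EV replicate 3. Of the genes called in MM1S, 3961 were called with the same sign in the mean of the other lines, 365 with the opposite sign and 1367 not called there. A difference from the mean can rest on 1 or a pair of the other lines, so the values of single lines are given for some genes. Where they are not given, the difference may rest on 1 line. BMF rose less in MM1S than in that mean (1.80 against 2.65, difference -0.86, SE 0.15, adjusted p = 0.000318), its log2 fold change being 3.30 in H929, 3.24 in OPM2 and 1.42 in RPMI-8226. BBC3 rose more than the mean (2.26 against 1.06), with 2.03 in H929, 0.61 in OPM2 and 0.54 in RPMI-8226. BAX (1.05 against 0.36) and BCL2L1 (0.70 against 0.05) also rose more than the mean, and the highest values elsewhere were 0.71 and 0.28, both in H929. BCL2L11 did not differ by the test (0.77 against 0.89, adjusted p = 0.441).

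MYC differed in sign, at 0.42 in MM1S against a mean of -1.05 elsewhere (adjusted p of the difference = 3.69e-09), with -1.24 in H929, -0.99 in OPM2 and -0.94 in RPMI-8226. Of the MYC target and nucleolus list, 13 of 32 were called lower in MM1S, 7 without EV replicate 2, 22 with the MM1S libraries alone and 20 with a replicate block within each line. The median was -0.27, against -1.05 in H929, -0.76 in OPM2 and -0.52 in RPMI-8226. The difference was called for 27 of its 32 genes, all more positive in MM1S, against 10.3% of all tested genes. NCL, the nucleolar protein nucleolin, went from 1001 and 903 CPM to 764, 681 and 585 CPM, which was still a fall (-0.49). FBL, the nucleolar methyltransferase fibrillarin, was at 264 and 287 CPM against 299, 282 and 246 CPM (0.00, against -0.61 elsewhere).

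Cytosolic ribosomal protein genes, a list added after EEF2 had been seen among the most abundant called genes, rose in MM1S. Of 83 tested genes, 66 were called higher and 1 lower (43 higher without EV replicate 2), and the median log2 fold change was 0.67. Their CPM summed to 27409 and 30885 in the EV libraries and to 51115, 46129 and 44891 with the IRF4 guide, so the groups did not overlap. RPL3 went from 987 and 1020 CPM to 1944, 1856 and 1909 CPM (0.92, SE 0.09, adjusted p = 6.10e-09). EEF2 (chr19:3976056-3985463), the elongation factor that moves the ribosome along the mRNA, went from 3700 and 4184 CPM to 7471, 7669 and 7707 CPM (0.95, SE 0.08, adjusted p = 4.63e-10).

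The median of the ribosomal protein list was -0.11 in H929, 0.02 in OPM2 and -0.15 in RPMI-8226. The difference between MM1S and the mean of these lines was called for 68 of the 83 genes, all more positive in MM1S, and for EEF2 (adjusted p = 2.18e-08). Ribosomal protein genes have many processed pseudogenes, and how the authors' counting treated reads shared with them is not stated in the labels or notes.

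The p53 targets had a median of 0.93 in MM1S, 0.56 in H929, 0.18 in OPM2 and 0.36 in RPMI-8226. The difference from the mean of the other lines was called for 16 of 29, of which 14 were more positive in MM1S. CDKN1A showed one of the larger gaps, at 2.05 against a mean of 0.43 (adjusted p = 0.00229), with 1.21 in H929, 0.79 in OPM2 and -0.71 in RPMI-8226.

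The interferon-stimulated genes had a median of 0.87 in MM1S, 2.36 in H929, 1.98 in OPM2 and 0.83 in RPMI-8226, so MM1S lay beside RPMI-8226. Their difference from the mean of the other lines was called for 15 of 36 and was more positive in MM1S for none of these. PARP14, an interferon-induced ADP-ribosyltransferase, was at 48.0 and 47.5 CPM with EV and 53.03, 56.8 and 75.1 CPM with the guide, a log2 fold change of 0.35 against a mean of 2.38 elsewhere (adjusted p of the difference = 4.02e-10), where RPMI-8226 was at 0.31 and H929 and OPM2 at 3.50 and 3.32. The call on PARP14 in MM1S itself was lost without EV replicate 2, without EV replicate 3 or without IRF4 guide replicate 3. The class II list had a median of -0.56 in MM1S, 0.23 in H929 (2 higher and 1 lower of 11), 1.29 in OPM2 and 1.59 in RPMI-8226. The difference from their mean was called for 8 of 11 genes and was more positive in MM1S for none of these. HLA-DRB1 was at -0.70 against a mean of 1.05 (adjusted p of the difference = 0.00208), while CIITA fell further in H929 (-1.56) than in MM1S (-1.10).

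**Figure D5:**
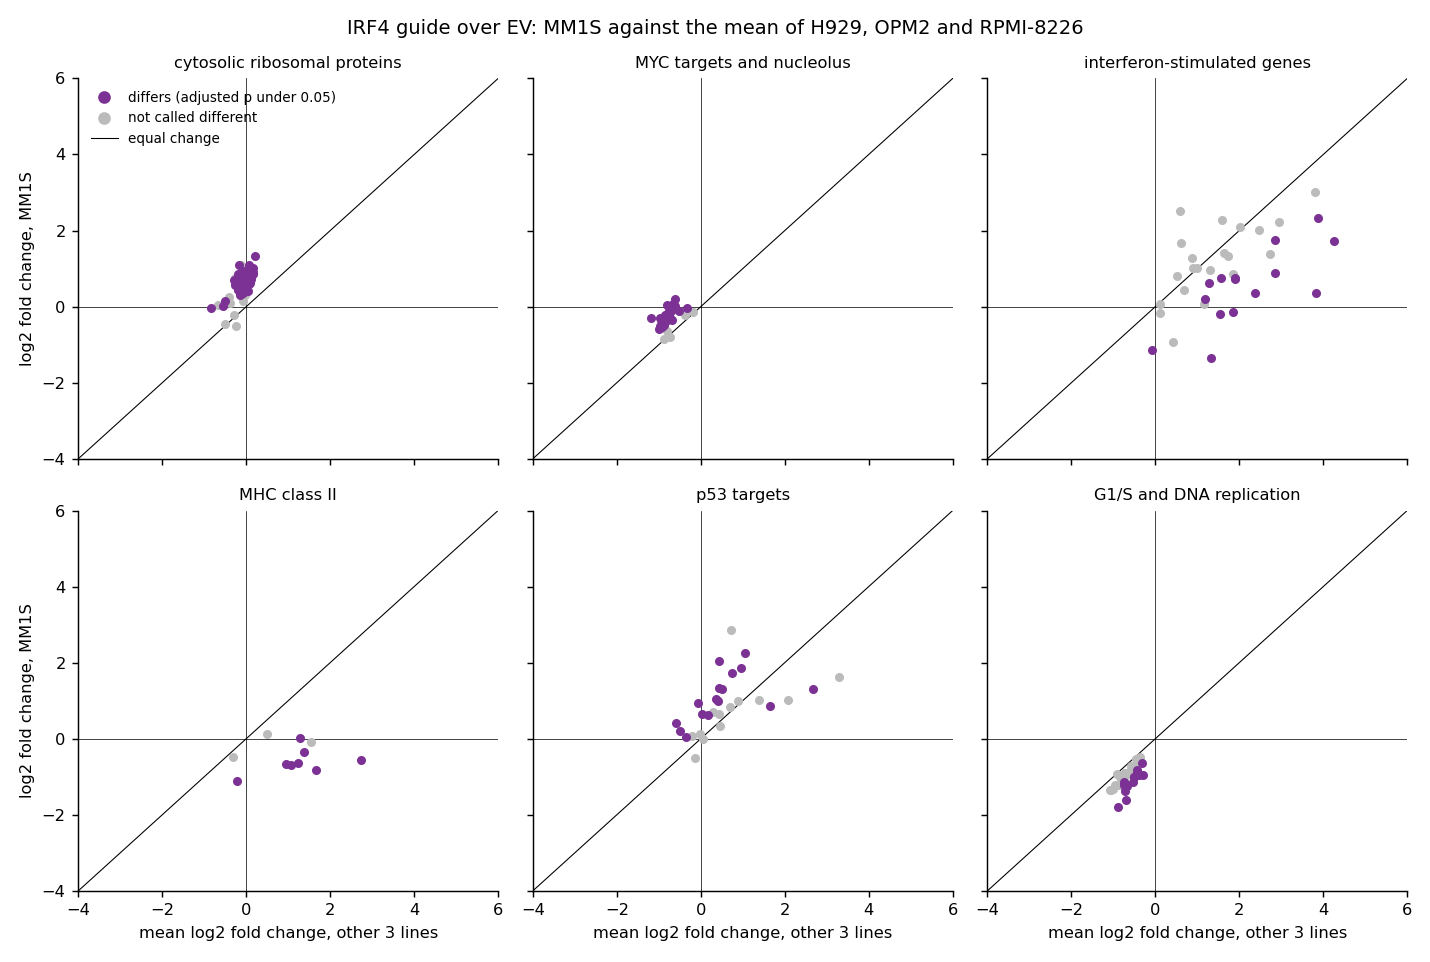
Log2 fold change in MM1S (vertical) against the mean of H929, OPM2 and RPMI-8226 (horizontal) for members of 6 lists with counts in both MM1S groups; the diagonal marks equal change, and purple points differ at an adjusted p under 0.05. Ribosomal proteins and MYC targets lie above the diagonal (68 of 83 and 27 of 32 called different), class II genes below it (8 of 11).

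Replication genes had a median of -0.98 in MM1S and -0.66 in the mean of the others, with 15 of 36 differences called, all more negative in MM1S. By line, their median was -1.35 in H929, -0.49 in OPM2 and -0.11 in RPMI-8226, so MM1S lay between H929 and OPM2. GPRC5D fell further than the mean, at -3.27 against -1.002 (adjusted p of the difference = 2.92e-05), with -1.79 in H929, -0.61 in OPM2 and -0.60 in RPMI-8226. SLAMF7 was at -1.30 against a mean of -0.29 (adjusted p of the difference = 0.000295), but at -0.93 in H929 and -1.08 in OPM2, and at 1.14 in RPMI-8226. TNFRSF17 was at -1.17 against a mean of -1.76 (adjusted p of the difference = 0.0193), with -1.44 in H929, -1.09 in OPM2 and -2.74 in RPMI-8226. ITGA4 fell in MM1S and had a mean change of 0.51 elsewhere (1.63 in H929, 0.31 in OPM2 and -0.41 in RPMI-8226). IL6R rose in MM1S and had a mean change of -0.81 elsewhere, between -0.96 and -0.71 by line (adjusted p of the differences 6.91e-09 for ITGA4 and 4.18e-09 for IL6R).

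In these bulk libraries, fewer cells of a kind and less RNA per cell cannot be told apart.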

How the data were processed

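RNA was sequenced from TruSeq libraries of 4 myeloma lines, per the labels' protocols. The authors deposited raw counts per gene for all 23 libraries, and separate log2 RPKM values (reads relative to gene length and library size). Subread, featureCounts and limma on GRCh38/hg38 are named in the submitters' processing notes, with versions, strand setting and treatment of shared reads not given in the sources used here. An MM1S EV replicate 1 was not analysed here.

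From the 28395 genes, filterByExpr (minimum count 10, by group) kept 16468. TMM scaling and edgeR 4.0.16 (R 4.3.3; quasi-likelihood F test, 8 group means, all 23 libraries, 15 residual degrees of freedom) gave the MM1S contrast and its difference from the mean of the other 3 lines, with Benjamini-Hochberg adjustment over all tested genes and a threshold of 0.05. All libraries entered because MM1S EV has 2. Normalised CPM are counts relative to TMM-scaled library size. Of tested genes, 864 had no MM1S count, and another 691 had counts with the guide and none with EV. The 490 entries without a symbol were 0.187% to 0.265% of MM1S counts. The scripts were tested on simulated data.

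Named genes were IRF4, the BCL2 family, MYC, PRDM1, KLF2, CDKN1A, MDM2 and MAF, then by rule: the 15 largest rises and falls of at least 5 CPM without overlap, the 6 highest called genes with a group at 0, up to 4 called members of each of 41 lists by adjusted p, 8 and 6 genes by the difference between lines, and the 6 most abundant called genes. Other members are named from these lists with their values, and some genes are not reported here. The members, lists and rule were chosen with earlier results of these data known. The lists of ribosomal proteins, elongation factors, surface targets, caveolae and p53 regulators were added after values were seen. Promoter sequences and gene coordinates are from RefSeq (GRCh38.p14). Alternatives were DESeq2 1.42.0 size factors and Wald test, limma-voom (limma 3.58.1), no filter, the MM1S libraries alone, 2 replicate blocks, the deposited log2 RPKM values, and leaving out each MM1S library.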

Additional observations from a re-analysis of the deposited data

Results flagged for a closer look

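All entries here are differences between the change in MM1S (IRF4 guide minus EV) and the mean of the same change in H929, OPM2 and RPMI-8226, picked out because the edgeR test of that difference passed an adjusted p of 0.05, and chosen partly by that p, so they describe and do not support each other. The test was passed by 3316 genes. Among the genes fixed by name, the difference in log2 fold change (MM1S minus the others) was -0.86 for BMF, 1.20 for BBC3, 0.69 for BAX, 0.50 for BAK1, 0.65 for BCL2L1, 1.47 for MYC, 1.62 for CDKN1A, 0.40 for MDM2 and 0.83 for MAF. MAF itself changed by 1.13 in MM1S, and by 0.59 in H929, 0.92 in OPM2 and -0.60 in RPMI-8226, so OPM2 lay near MM1S. HRK passed as well, with both MM1S EV libraries at 0 counts and a rise in MM1S of at least 4.39-fold.

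Among genes named for a small p in that test, the values were -1.57 for VIM, -2.03 for PARP14, -2.58 for TMEM229B and -1.81 for DENND1C. TMEM229B rose in MM1S by 1.67 (12.5 and 13.3 CPM to 39.1, 43.4 and 41.3 CPM) and by 4.25 in the mean of the other lines. DENND1C, a regulator of the small GTPase RAB35, rose by 0.83 against 2.64.

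Genes called in opposite directions gave 1.21 for TTC7A, 1.21 for AKR1A1, 1.30 for COQ8A, 3.11 for PTPN13, 1.92 for LDLRAD3 and -2.01 for SERPINE2. AKR1A1, an aldehyde reductase, went from 111 and 112 CPM to 188, 200 and 189 CPM in MM1S and had a mean log2 fold change of -0.41 elsewhere. PTPN13, a protein tyrosine phosphatase, went from 27.1 and 25.0 CPM to 44.0, 49.7 and 65.7 CPM, with a mean of -2.10 elsewhere, where H929 was at -0.75 and OPM2 at 0.00. The MM1S call on SERPINE2, a secreted protease inhibitor, was lost without either EV library.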

How the results depend on the processing

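With EV at 2 libraries, the number of calls rested most on them: 3810 genes were called without EV replicate 2 and 4162 without EV replicate 3, where 17104 genes were tested, against 5091 to 5211 without any 1 guide library and 5693 with all. With a library left out, 2011 to 2983 genes were called higher (2011 without EV replicate 2), and the MM1S change differed from the other lines for 1906 (without EV replicate 2) to 3145 genes, 2050 without EV replicate 3. The other settings called 5238 to 6360 genes. On the deposited log2 RPKM values, 760 genes in place of 465 were called at least 2-fold lower, and the cause was not tested. The share of calls that were higher was 56.1%, and 48.0% with the MM1S libraries alone. Deviations from the group mean hardly correlated between MM1S libraries of the same replicate number (0.0256 and 0.054). With 2 EV libraries the EV deviations mirror each other, so these values cannot show whether replicates were paired. With a replicate block within each line 6060 genes were called, and 6360 with a replicate block shared by the lines. Of 193 named genes called, 162 stayed called in every alternative that gave a value (of 13, and 11 or 12 for some low genes), 31 lost their call in at least 1, and none that was called changed sign. With the MM1S libraries alone, list members called lower rose to 8 for the unfolded protein response (from 4), 11 for the ATF4 response (from 7) and 7 for adhesion (from 4), and on the log2 RPKM values members called higher fell to 3 for the B cell programme (from 8), 15 for interferon-stimulated genes (from 23) and 5 for JAK kinases and STAT factors (from 8). Depth limits low genes: 55 genes called had no EV count.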

Other observations

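Of 9 genes of translation elongation, a list added after values were seen, 6 were called higher in MM1S with the guide (EEF2, EEF1A1, EEF1B2, EEF1D, EEF1G and the kinase EEF2K) and 1 lower. EEF1A1, which brings aminoacyl-tRNA to the ribosome, and EEF1G, a subunit of its exchange factor, had log2 fold changes of 0.74 and 0.60. EEF1E1, which belongs to the aminoacyl-tRNA synthetase complex, fell by 0.79. In a list of surface targets of immunotherapy, also added after values were seen, 3 of 12 were lower (GPRC5D, SLAMF7, TNFRSF17). A further 2 were higher (FCRL5 and LY9, the latter by 0.83). Over all tested genes 15.2% were lower and 19.4% higher. CD46, CD47 and CD48 were not called, with log2 fold changes of -0.18, -0.03 and -0.12. CAV1 fell together with its partner CAV2, with a log2 fold change of -1.46.

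Lists not described above were the following, to be read beside the 19.4% called higher and 15.2% called lower of all tested genes. Of 16 cytokine receptor chains 8 were higher and none lower, with IL21R from 15.2 and 13.2 CPM to 38.1, 40.5 and 40.3 CPM. Of 23 genes of the ATF4 and amino acid response 7 were lower and none higher (median -0.27). SLC1A5, a glutamine transporter, went from 552 and 560 CPM to 350, 338 and 292 CPM. Of 24 oxidative phosphorylation genes 4 were higher and 1 lower (16.7% and 4.17%, median 0.04), and 0 were higher without EV replicate 2. Of 10 Kruppel-like factors 5 were higher and 2 lower, and KLF11 lost its call without EV replicate 2. Of 20 AP-1 and immediate early genes 3 were higher and 4 lower (15% and 20%), shares near those of all tested genes. Without EV replicate 2, 0 were higher, while without EV replicate 3, 2 were lower. JUN went from 24.9 and 24.2 CPM to 14.1, 10.2 and 8.04 CPM. Of 8 glucocorticoid receptor genes and targets 4 were higher and 1 lower. Of 12 genes around Ikaros and cereblon 2 were higher and 1 lower (16.7% and 8.33%). Of 8 genes of the MAF programme 4 were higher and 1 lower (median 0.89, and 0.47 without EV replicate 2), and of 8 myeloma translocation oncogenes 2 were higher and 4 lower. Among markers of other cells, CD3E was higher (4.18 and 3.57 CPM to 9.41, 8.09 and 10.8 CPM) as 1 of 13 T and NK cell genes, 3 of 9 myeloid genes were higher (1 without EV replicate 2), and 1 of 8 stromal and 1 of 7 erythroid genes were lower.

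An entry without a symbol (Entrez_102724241) was at 0.510 and 0.446 CPM with EV and at 31.0, 0.708 and 55.7 CPM with the guide, the guide libraries differing more from each other than from EV, and was not called.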
